A study of Mus musculus with 15 samples.

Results

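The genes described here are 8 genes of the melanosome, the organelle in which pigment is made, and of pigment cells: Pmel, Dct, Tyrp1, Tyr, Mitf, Mlana, Trpm1 and Slc45a2. They were chosen by name, as 8 of the 30534 features counted in the transcript files. The counts come from 11 sections of whole mouse embryos that were barcoded in place by 2 perpendicular sets of microfluidic channels. Every intersection of channels is a pixel, identified by the pair of barcodes it received. It is a small region that can hold several cells or part of one, not a single cell. The groups were E10 (embryonic day 10) with pixels of 50 µm (3 libraries), 25 µm (1) and 10 µm (2), E11 with pixels of 25 µm (2) and 10 µm (2), and E12 with pixels of 50 µm (1). All sections were cut from frozen embryos that carried no stated treatment. Strain, genotype and sex are not in the labels, nor is the embryo a section came from or the region it shows. Separate embryos are not stated, so p-values measure the spread between these sections.

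At these stages pigment genes are known from the outer layer of the optic cup, which becomes the retinal pigment epithelium, a single sheet of cells around the neural retina. The other source of pigment cells is the neural crest, whose melanoblasts migrate beneath the surface ectoderm. Pmel forms the fibrils on which melanin is laid down, Tyr is the rate-limiting enzyme of melanin synthesis, and Tyrp1 and Dct act on later intermediates. Slc45a2 is a transporter of the melanosome membrane, Mlana is a melanosomal protein that binds Pmel, Trpm1 is a cation channel of melanocytes and of retinal bipolar cells, and Mitf is the transcription factor that activates many of the others.

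Mitf is known to bind a short element, the M-box, in promoters of melanin enzymes. The following 4 RefSeq promoter windows (build GRCm38.p6, 250 bases before to 50 after a transcript's start) are shown because they hold its core, TCATGTG, on either strand, which is in capitals. Only 5 of the 8 genes matched the promoter table, with 8 windows in all.
Tyr: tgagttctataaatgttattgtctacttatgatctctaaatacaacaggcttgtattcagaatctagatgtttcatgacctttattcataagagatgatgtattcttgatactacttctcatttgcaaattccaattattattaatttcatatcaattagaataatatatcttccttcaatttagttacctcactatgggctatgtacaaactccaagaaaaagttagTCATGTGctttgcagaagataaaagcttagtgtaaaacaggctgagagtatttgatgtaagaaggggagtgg
Tyrp1: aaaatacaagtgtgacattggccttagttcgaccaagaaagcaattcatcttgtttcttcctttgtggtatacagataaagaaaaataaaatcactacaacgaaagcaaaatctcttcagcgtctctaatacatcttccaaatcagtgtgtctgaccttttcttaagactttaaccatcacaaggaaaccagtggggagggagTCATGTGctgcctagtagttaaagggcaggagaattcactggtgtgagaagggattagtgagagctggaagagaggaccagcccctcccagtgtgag
Dct: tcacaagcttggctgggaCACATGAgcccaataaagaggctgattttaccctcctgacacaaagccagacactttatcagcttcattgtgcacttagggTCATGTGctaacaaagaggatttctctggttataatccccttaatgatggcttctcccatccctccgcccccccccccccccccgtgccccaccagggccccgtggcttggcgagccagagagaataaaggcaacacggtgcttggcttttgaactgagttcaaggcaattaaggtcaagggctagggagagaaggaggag
Trpm1: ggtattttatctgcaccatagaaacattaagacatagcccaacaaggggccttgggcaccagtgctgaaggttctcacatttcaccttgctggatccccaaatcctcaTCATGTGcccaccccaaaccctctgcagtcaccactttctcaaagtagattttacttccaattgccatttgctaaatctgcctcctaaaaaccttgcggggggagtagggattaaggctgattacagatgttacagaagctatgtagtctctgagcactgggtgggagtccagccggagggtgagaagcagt

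Each sequence is printed 5′ to 3′ in the sense of the gene. The Tyr window is chr7:87493463-87493762 on the minus strand, the Tyrp1 window chr4:80833963-80834262 on the plus strand, the Dct window chr14:118052197-118052496 on the minus strand and the Trpm1 window chr7:64153585-64153884 on the plus strand. With the start as position 0, the match began at -22 in Tyr, at -47 in Tyrp1 and at -142 in Trpm1. Dct held 2 matches, at -151 and, on the opposite strand, at -232. The letters were not found in the 3 windows of Mitf or in the second window of Trpm1. Among all 32851 promoter windows of the table, 1239 (3.77%) held the same letters on either strand. A match describes the sequence and was not tested for binding.

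In GENCODE M21 (build GRCm38), Tyr lies on chromosome 7 from 87424771 to 87493512 (minus strand), Tyrp1 on chromosome 4 from 80834123 to 80851719 (plus), and Dct on chromosome 14 from 118012790 to 118052244 (minus). Trpm1 spans 64153835 to 64269775 of chromosome 7 (plus) and holds the microRNA gene Mir211. Mitf spans 97807052 to 98021349 of chromosome 6 (plus), Mlana 29697824 to 29708634 of chromosome 19 (plus) and Slc45a2 11000721 to 11029233 of chromosome 15 (plus). Pmel lies on chromosome 10 from 128704195 to 128720238 (plus) and overlaps the opposite-strand genes Cdk2 by 837 bases and Dgka by 105. Dct overlaps an antisense gene, 4930435M08Rik, by 1891 bases. Whether the counting used strand is not given in the sources used here, so reads from these overlaps cannot be told apart.

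Tissue pixels numbered 829 to 2271 per library and held 1563489 to 11998765 counts. A tissue pixel is one whose total reached 0.1 of the 95th percentile of its library. The summed level of the 8 genes, as counts per 1000000 tissue counts (CPM), was 133 and 213 in the 2 libraries of E10 at 10 µm. It was 82.5 in E11 10 µm replicate 1, 58.2 in the only E10 25 µm library and 45.5 in E10 50 µm replicate 2. In the other 6 libraries it was 3.75 to 9.23, between 16 and 74 counts in all. Libraries of one group therefore differed widely: E10 50 µm held 3.97, 45.5 and 6.96 CPM, and E11 10 µm held 82.5 and 5.84. Fewer cells that express a gene and less RNA per cell cannot be told apart in these sums.

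A pixel was called pigment-positive when it held at least 2 counts of the 8 genes and at least 5 per 10000 of its total. By this rule 82 of 2173 tissue pixels were positive in E10 10 µm replicate 1, 167 of 2271 in E10 10 µm replicate 2 and 40 of 1636 in E11 10 µm replicate 1. The other 8 libraries had 1 to 11 positive pixels, and their positions are not analysed here. Positive pixels held 68.5%, 75.5% and 67.4% of the counts of the 8 genes in the 3 libraries, and 4.3%, 9.5% and 2.16% of all counts. The lowest positive pixels held 5.03 (E10 10 µm replicate 1) and 5.03 (replicate 2) counts per 10000, and the highest pixels with at least 2 counts that missed the rule held 4.7 and 4.99. The share of pixels with at least 1 count of the 8 genes was 21.2%, 18.5% and 6.66% in the same order. Among the 2173, 1834 and 1025 pixels with at least 1000 counts, each reduced at random to 1000, it was 6.44%, 11.8% and 5.07%.

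**Figure D1:**
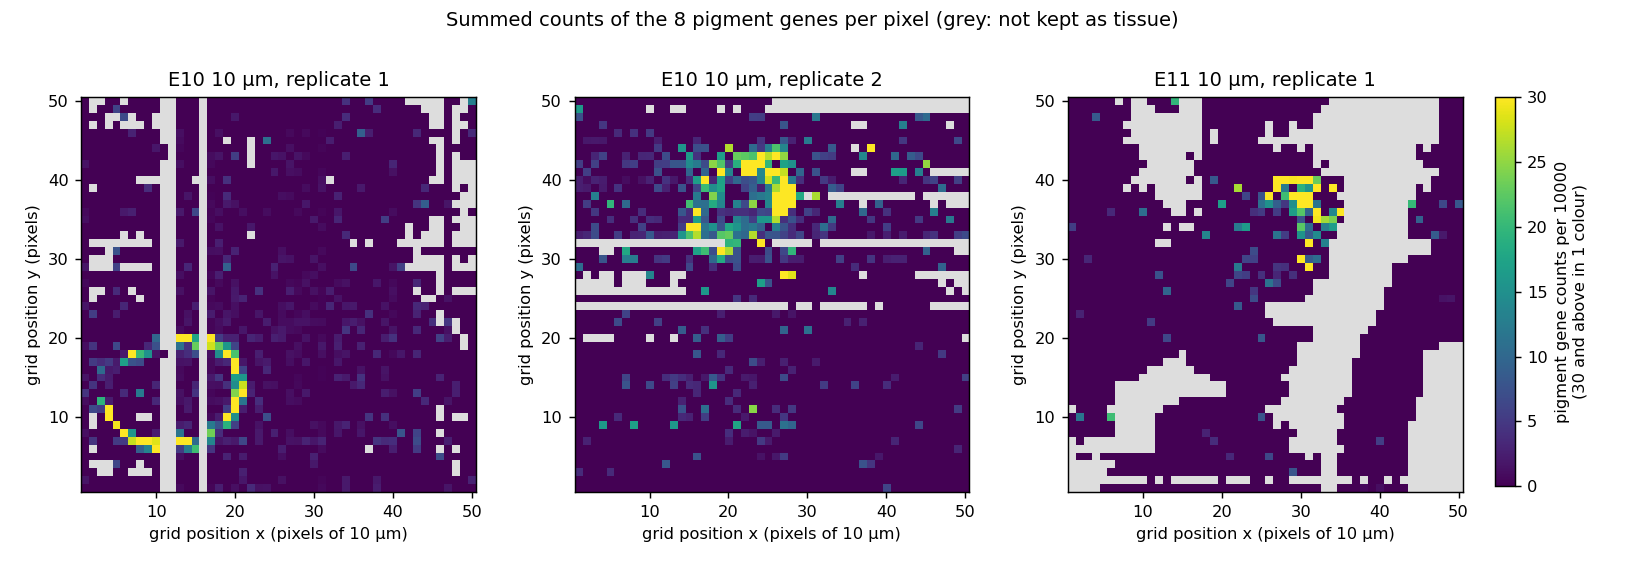
Summed counts of the 8 pigment genes per 10000 counts in each pixel of 3 sections, at grid positions x and y in pixels, with grey for pixels not kept as tissue and values of 30 or more in 1 colour. In E10 10 µm replicate 1 the positive pixels trace a thin outline with gaps, some where columns of low counts cross it and one on its left side, in E10 10 µm replicate 2 they trace a thicker outline, and in E11 10 µm replicate 1 an arc.

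The maps show where the counts lay. In E10 10 µm replicate 1 a circle fitted to the 67 positive pixels in clusters of at least 3 had a radius of 7.79 pixels, and the distance of these pixels from its centre had an SD of 1.12 pixels. Of 24 sectors of 15 degrees around the centre, 21 held a positive pixel. Columns 11, 12 and 16 of that grid had low totals, with at least 47 of their 50 pixels below the tissue limit, and they cross the outline. In E10 10 µm replicate 2 the radius was 5.73 pixels (SD 1.76, 123 pixels, 23 of 24 sectors). Row 32 of that grid, which lies at the edge of the fitted circle, had 43 of its 50 pixels below the tissue limit. In E11 10 µm replicate 1 the radius was 4.89 pixels (SD 1.34, 30 pixels), but only 13 of 24 sectors were filled, so the shape is an arc. A stricter rule, at least 3 counts and 10 per 10000, gave 7.64, 5.55 and 2.55 pixels, so the third fit depends on the rule. Distances are given in pixels because the labels do not state the spacing between channels.

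The outline was thin in E10 10 µm replicate 1. For each positive pixel the shortest of its unbroken runs of positive pixels along x, along y and along both diagonals was measured. In all 82 positive pixels this run was 1 or 2 pixels long (95% exact binomial interval 95.6% to 100.0%), and in 59 of them it was 1. A single positive pixel was surrounded by positive pixels on its 4 sides. The largest connected group held 30 pixels, and 15 pixels stood alone. No other pixel was enclosed by positive ones. However, all 50 pixels of columns 12 and 16 were below the tissue limit and could not be positive. Whether the outline was closed can therefore not be read from these pixels. A run also cannot cross these columns, so runs beside them may be cut short. In the second E10 library the run was at most 2 pixels in 131 of 167 (78.4%, interval 71.4% to 84.4%), 27 pixels were surrounded, and the largest connected group held 110. In that library 28 other pixels were enclosed by positive ones, but 7 when Mitf was left out of the rule and 1 under the stricter rule. In E11 10 µm replicate 1 the run was at most 2 pixels in 39 of 40 (97.5%, interval 86.8% to 99.9%), with 24 pixels in the largest group. The plane of each section is not given in the labels.

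A short run by itself does not mark a sheet. When the same number of pixels with the highest share of a neural retina list (Rax, Six3, Six6, Lhx2, Pax6, Sox2, Hes5, Fgf15 and Sfrp2) was taken, 82 of 82, 167 of 167 and 40 of 40 also had runs of at most 2 pixels. They formed 24, 103 and 28 connected groups, of which 12, 79 and 19 were single pixels and the largest held 16, 27 and 4. The pigment-positive pixels formed 21, 41 and 11 groups, of which 15, 32 and 6 were single pixels and the largest held 30, 110 and 24. In E10 10 µm replicate 1 the numbers of groups were thus close, and the sets differed mainly in the largest group.

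**Figure D2:**
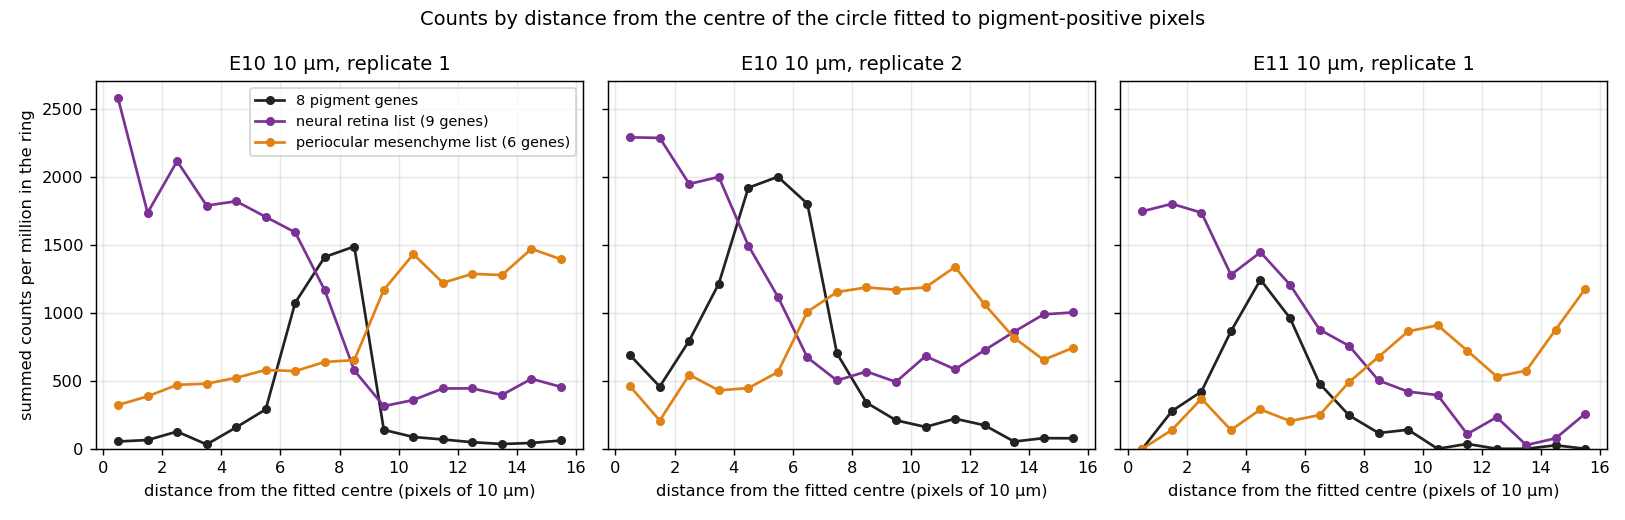
Summed CPM of the 8 pigment genes, of the neural retina list and of the periocular mesenchyme list in rings 1 pixel wide, against distance from the fitted centre in pixels, for 3 sections. In each E10 section the pigment genes peak near the fitted radius, the neural retina list is highest at the centre and the periocular mesenchyme list is higher outside the peak than inside it.

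The plot of counts by distance from the centre sets the pigment genes between 2 other groups of genes. The peak of the pigment genes themselves is a description, since the circle was fitted to them. They reached, in E10 10 µm replicate 1, 1488 CPM at 8 to 9 pixels, and 3 rings held 0.5 of that or more. Within 4 pixels of the centre their highest ring was 127 CPM. The neural retina list, which the fit did not use, was at 2001 CPM more than 3 pixels inside the circle, 976 within 1 pixel of it and 336 at 1 to 3 pixels outside. The periocular mesenchyme list (Foxc1, Foxc2, Twist1, Tfap2b, Col1a1 and Col3a1, genes of the connective tissue around the eye) ran the other way, with 489, 635 and 1191 CPM. For E10 10 µm replicate 2 the neural retina list was at 2037, 1014 and 537 CPM and the mesenchyme list at 427, 666 and 1215 CPM in the same zones. In E11 10 µm replicate 1 the neural retina list was at 1814, 1316 and 861 CPM, and the mesenchyme list at 134 (2 counts), 251 and 339 CPM. Over these 3 zones both E10 sections thus had the neural retina list falling and the mesenchyme list rising from the inside of the outline to its outside. The E11 values ran the same way, but they rest on a circle that the stricter rule moves and shrinks until no pixel lies more than 3 pixels inside it. These zones hold 10 to 111 pixels of 1 section each, so the values carry no replicate error. The order did not continue into the rest of the tissue. More than 6 pixels outside the circle the neural retina list was at 452 CPM in E10 10 µm replicate 1 and 883 CPM in replicate 2. The mesenchyme list was there at 1388 and 640 CPM, so neither list was confined to the surroundings of the outline.

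Six6 and Rax of the neural retina list each followed the same order in the E10 sections. Six6, a homeobox gene of the optic cup, was at 257, 109 and 16.8 CPM in replicate 1 and at 214, 102 and 25.6 CPM in replicate 2. In the E11 section Six6 was at 202 (3 counts), 251 and 137 CPM, which is not that order. Rax was at 67.8, 29.8 and 7.47 CPM in replicate 1 and at 28.5, 16.1 and 8.53 CPM in replicate 2 (2, 3 and 2 counts). It kept the order in the E11 section, at 269, 50.2 and 18.3 CPM (4, 4 and 2 counts). The pigment genes at the same places of replicate 1 were at 103, 1508 and 192 CPM, and those of replicate 2 at 727, 2077 and 733 CPM. The inner zone of replicate 2 therefore held more pigment gene counts than that of replicate 1, 51 counts in 25 pixels against 29 in 47.

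The 8 genes were then asked whether they share pixels. For each gene, positive pixels were chosen again by the other 7 genes alone, and its CPM inside those pixels was divided by its CPM in the rest of the tissue. Intervals are exact 95% intervals and cover counting error only.

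**Figure D3:**
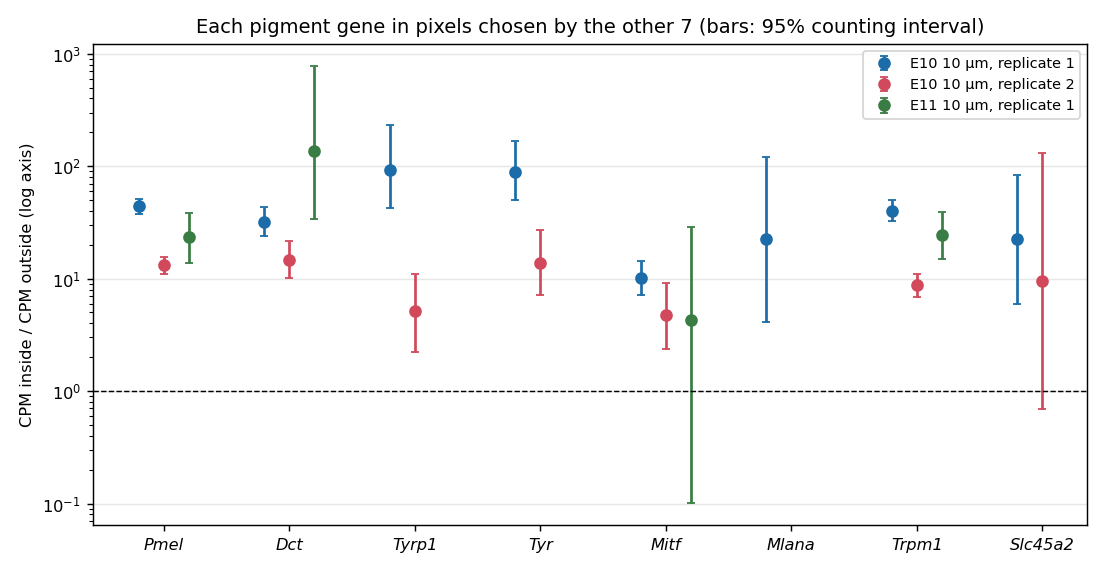
Ratio of each gene's CPM inside pixels chosen by the other 7 genes to that outside, on a log axis, in 3 sections, with 95% counting intervals. Ratios for Pmel, Dct and Trpm1 lie above 1 in all 3 sections; genes with no count inside are not drawn.

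Pmel, the fibril protein, was at 1133 CPM inside and 25.9 outside in E10 10 µm replicate 1, a ratio of 43.8 (interval 37.6 to 50.9). It was at 922 and 70.6 CPM in replicate 2, a ratio of 13.1 (11.0 to 15.5), and at 672 and 28.8 CPM in E11 10 µm replicate 1, a ratio of 23.4 (13.7 to 38.4). The 3 intervals of Pmel all lie above 1, and those of the 2 E10 sections do not overlap.

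Among the enzymes, Tyr was 89.1-fold (interval 50.0 to 169) higher inside in E10 10 µm replicate 1, where 60 of its 75 counts lay in the chosen pixels. In replicate 2 the ratio was 13.8 (7.09 to 27.3), with 24 of 41 counts. Tyrp1 gave ratios of 92.9 (42.1 to 233), with 33 of 41 counts inside, and 5.11 (2.23 to 11.1), with 11 of 32. Dct gave 32.1 (24 to 43.1) and 14.7 (10.2 to 21.4), and 136 (33.9 to 780) in E11 10 µm replicate 1 from 9 of 12 counts. All 3 enzymes thus had ratios with intervals above 1 in both E10 sections, although most Tyrp1 counts of replicate 2 lay outside the chosen pixels. In the E11 section the 2 counts of Tyrp1 and the 1 count of Tyr lay outside, too few to give a direction.

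Trpm1, the channel, gave ratios of 40.2 (interval 32.6 to 49.8), 8.73 (6.85 to 11.1) and 24.3 (14.8 to 39.0). Mitf, the regulator, gave 10.2 (7.1 to 14.4) and 4.76 (2.39 to 9.09) in the E10 sections and 4.27 (0.101 to 28.5) in E11, where only 1 of its 14 counts lay inside. Mitf had, in E10 10 µm replicate 1, 110 of its 158 counts outside the chosen pixels, at 9.56 CPM, and its interval lay below those of Pmel, Dct, Tyr, Tyrp1 and Trpm1. In replicate 2 it lay below those of Pmel and Dct and overlapped the rest, but under the stricter rule the Mitf ratio was 7.83 (3.78 to 15.3) and its interval overlapped those of Pmel and Dct too. Mlana gave 22.3 (4.15 to 120) from 8 counts in replicate 1 and was listed in no other of these 3 sections. Slc45a2 gave 22.3 (5.95 to 83.3) from 12 counts and 9.53 (0.69 to 131) from 4.

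The counts fell off within a few pixels. In E10 10 µm replicate 1 Pmel was at 1133 CPM in the pixels chosen by the other 7 genes, 134 CPM in the pixels next to them, 31.9 at a distance of 2 pixels, 30.9 at 3 and 16.2 at 4 or more. In replicate 2 the same steps were 922, 307, 65.6, 65.1 and 20.3 CPM. Dct, an enzyme, fell from 237 CPM to 19.4 and 6.15 over the first 3 steps in replicate 1, and from 161 to 26.6 and 8.87 in replicate 2. Mitf fell from 97.4 to 13.8 CPM in 1 pixel in replicate 1. There it was at 12.6 CPM at 2 pixels, 15.8 at 3 and 7.71 at 4 or more. The same steps for Mitf in replicate 2 were 30.7, 10.4, 14.8, 2.855 and 2.958 CPM. At 4 pixels or more Pmel still had 150 counts in replicate 1 and 64 in replicate 2, which sets the level of these genes away from the outline. Their source was not tested.

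Pixel by pixel the pairs correlated weakly, on log2(count per 10000 + 1). Over 2173 pixels of E10 10 µm replicate 1 Pearson's r was highest for Pmel with Trpm1 (0.51, with 70 pixels holding both), and the median of 28 pairs was 0.197. Pmel with Dct gave 0.41 and Pmel with Tyr 0.44. The median was 0.0805 over 21 pairs in replicate 2, where Mlana was not listed, and 0.0155 over 15 pairs in E11 10 µm replicate 1. The pixels share 1 library and many zeros, so these values are a description only. Moran's I, which measures whether neighbouring pixels have similar values, ranked Pmel 28 of 14161 genes in replicate 1 (0.346), 3 of 11728 in replicate 2 (0.469) and 11 of 10997 in the E11 section (0.289). Trpm1 ranked 36, 26 and 5 in the same order. Mitf ranked 616 and 906 in the E10 sections and was seen in too few pixels of the E11 section to be ranked. In the same 2 E10 sections Dct ranked 69 and 21, Tyr 73 and 86, and Tyrp1 351 and 2947.

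Levels in all 11 libraries follow, by role. CPM are not divided by length, so levels are compared for 1 gene at a time.

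**Figure D4:**
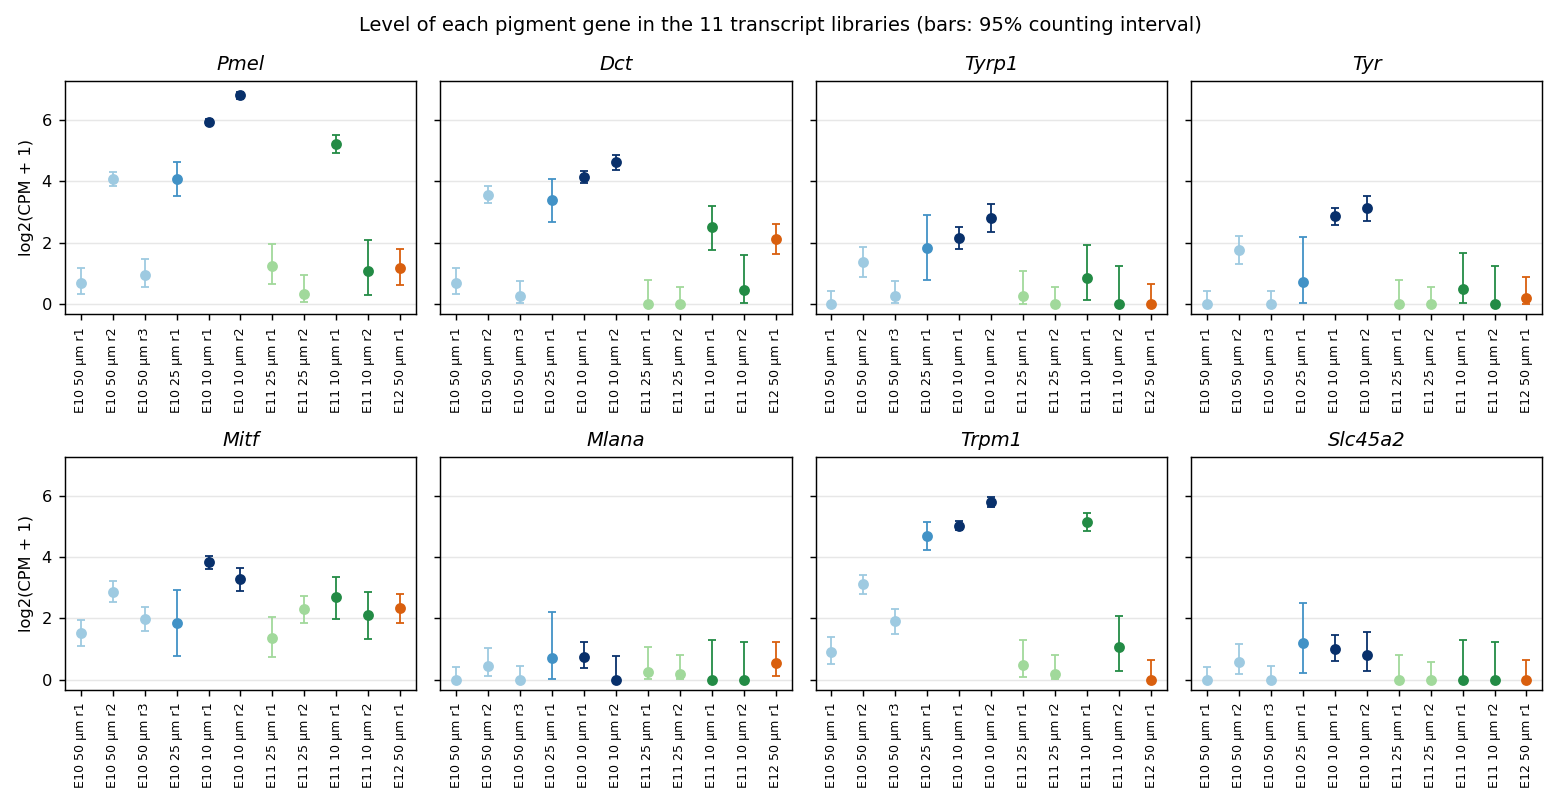
Level of each pigment gene as log2(CPM + 1) in 11 libraries coloured by stage and pixel width, with 95% counting intervals. Pmel and Trpm1 are highest in E10 10 µm replicates 1 and 2 and in E11 10 µm replicate 1, whereas Mitf is above 0 in every library.

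Pmel was at 60.1 and 111 CPM in E10 at 10 µm, 36.6 and 1.09 in E11 at 10 µm, 16 in E10 at 25 µm, 0.617, 16 and 0.94 in E10 at 50 µm, 1.23 in E12 at 50 µm, and 1.38 and 0.26 in E11 at 25 µm. The E10 10 µm libraries were above all others, and E11 10 µm replicate 2 stood with the low libraries. Trpm1 was at 31.5 and 55.1 CPM in E10 at 10 µm, 34.6 and 1.09 in E11 at 10 µm, 24.9 in E10 at 25 µm, 0.881, 7.63 and 2.73 in E10 at 50 µm, and 0.395 and 0.13 in E11 at 25 µm. It had no count in E12, which allows up to 0.462 CPM. The counting intervals of E10 10 µm replicate 1 (28.4 to 34.8), E11 10 µm replicate 1 (27.8 to 42.6) and E10 25 µm (17.7 to 34.1) overlapped for Trpm1, and the values of E10 and E11 at 10 µm overlapped too.

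Tyr was at 6.25 and 7.74 CPM in E10 at 10 µm, 2.38 in E10 50 µm replicate 2, and at most 0.64 in every other library. Tyrp1 was at 3.42 and 6.04 CPM in E10 at 10 µm, 2.56 in E10 at 25 µm, 1.55 in E10 50 µm replicate 2, and at most 0.778 elsewhere. Dct was at 16.6 and 23.8 CPM in E10 at 10 µm, 9.59 in E10 at 25 µm, 10.8 in E10 50 µm replicate 2, 4.67 in E11 10 µm replicate 1 and 3.38 in E12. It had no count in either E11 25 µm library, which allows up to 0.592 and 0.391 CPM. Dct in E12 (22 counts) was thus above its level in 5 libraries of E10 and E11, while Tyr, Tyrp1 and Trpm1 together had 1 count there.

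Mitf was counted in all 11 libraries, between 1.58 and 13.2 CPM. It was at 13.2 and 8.68 CPM in E10 at 10 µm, 1.85, 6.32 and 2.91 in E10 at 50 µm, 2.56 in E10 at 25 µm, 1.58 and 3.91 in E11 at 25 µm, 5.45 and 3.28 in E11 at 10 µm, and 4.0 in E12. Its range was narrower than that of Pmel, and the values of the E10 10 µm libraries were the highest. The counting interval of E10 10 µm replicate 2 (6.355 to 11.58) overlapped those of E10 50 µm replicate 2 (4.732 to 8.262) and E11 10 µm replicate 1 (2.978 to 9.138). It also overlapped that of E10 25 µm (0.6971 to 6.55). Mlana had 0 to 8 counts and Slc45a2 0 to 12 counts per library, near or at the floor of 3 counts in most. Files list only some genes, and a gene with no column was taken as 0: 3 of 11 files listed all 8 genes and the others 4 to 7.

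The stage question was put to the 2 pixel widths that E10 and E11 share, averaging the 10 µm and the 25 µm change. None of the 6 genes that passed the filter on low counts (all but Mlana and Slc45a2) was called by edgeR's quasi-likelihood test with Benjamini-Hochberg adjustment, where 656 of 18233 genes (3.6%) were. DESeq2 called 2 of them lower, Dct and Trpm1, and 9.06% of all genes it tested. In edgeR with no filter on low counts, Tyrp1 (-4.06) and Slc45a2, which had no count in E11, were called, as were 6.6% of all genes. With the filter, 3 had an unadjusted p under 0.05 in edgeR, as did 23.1% of all genes. All 6 had a negative log2 fold change, with a median of -3.96 against 0.05 for all genes. Tyrp1 gave -4.05 (SE 1.41, adjusted p = 0.121), Trpm1 -3.86 (SE 1.27, adjusted p = 0.139), Pmel -3.22 (SE 1.7, adjusted p = 0.315) and Mitf -0.51 (SE 0.643, adjusted p = 0.665) in edgeR. Dct and Tyr had no count in E11 at 25 µm, so their fitted values are not given. At 25 µm Dct was at least 40.8-fold lower in E11 than in the single E10 library, with E11 set at a floor of 3 counts over the group. Without E11 10 µm replicate 1, the E11 section with an arc, Trpm1 was called at -5.84 among 1465 genes, and without E10 50 µm replicate 2 Dct was called among 506. Of a list of 31 other pigment genes 29 were tested and 2, Gpnmb and Oca2, were called lower, where 1.67% of all genes were. The list's median was -0.07. Gpnmb kept its call in 8 and Oca2 in 13 of 13 alternatives. Oca2, a melanosome transporter, was at 4.83, 4.34 and 4.48 CPM in E10 at 10 and 25 µm and at 0.395, 0, 0 and 0 CPM in E11. Gpnmb, a melanosome glycoprotein related to Pmel, was at 7.83, 10.2 and 9.59 CPM in E10 and at 0, 0, 1.56 and 0 CPM in E11.

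Genes of the eye were high or low in many of the same libraries as the pigment genes. Six3, a homeobox gene of the optic cup and forebrain, was at 117 and 84.7 CPM in E10 at 10 µm, 78.7 in E10 at 25 µm and 72.8 in E11 10 µm replicate 1. It was at 2.55 CPM in E11 10 µm replicate 2, at 0 and 0.26 in E11 at 25 µm and at 1.85 in E12. Six6 was at 46.9, 21.9, 16 and 28 CPM in the first 4 of these libraries and at 0.729, 0, 0 and 0.308 in the rest. Of the 9 genes of the neural retina list, all tested, 3 were called lower in E11 (Rax, Lhx2 and Sfrp2), with a median of -1.97. Rax, a homeobox gene of the early eye field, gave -4.13 (SE 0.952, adjusted p = 0.0403 in edgeR) and was called in 6 of 13 alternatives, and Lhx2, another, -2.57 (SE 0.443, adjusted p = 0.016 in edgeR). Otx2 was at 35.6, 75.3 and 59.5 CPM in E10 at 10 and 25 µm, 57.6 in E11 10 µm replicate 1, 0.729 in E11 10 µm replicate 2 and 0 in both E11 25 µm libraries. At E10 and 50 µm the 2 did not go together: Six3 was at 34.8, 47.3 and 68 CPM and Otx2 at 85.6, 87.2 and 165 CPM, while only replicate 2 was high in Pmel. Six6 was at 2.82, 15.9 and 1.98 CPM there, highest in replicate 2 like Pmel. Whether these sections hold an eye, and the part this has in the difference between stages, was not tested.

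At 50 µm, where the lone E12 library borrows its spread from the other groups, none of the 6 genes was called by edgeR (390 of 18233 genes, 2.14%, were). DESeq2 called none of them and 2.91% of all genes, and none had an unadjusted p under 0.05 in edgeR, against 14.4% of all genes. Pmel gave -2.3 (SE 2.82, adjusted p = 0.799) and Mitf 0.06 (SE 0.757, adjusted p = 0.986) in edgeR. Trpm1 had 103 counts in the E10 libraries and none in E12, at least 8.11-fold lower with E12 at the floor of 3 counts. That bound was 3.91-fold without E10 50 µm replicate 2. Without the same library Pmel gave 0.66, Dct 3.01 and Tyr 3.14, each opposite in sign to the value with all libraries. Mitf changed sign without replicate 1 (-0.27) or replicate 3 (-0.09).

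Pixel width was compared within E10 and within E11. At E10, 10 µm against 50 µm, all 6 genes had a positive log2 fold change, with a median of 3.12 against -0.03 for all genes. None was called by edgeR, where 20 of 18233 genes (0.11%) were. DESeq2 called none of them and 2.95% of all genes, and 4 had an unadjusted p under 0.05 in edgeR, against 10.8% of all genes. With no filter on low counts Tyr and Tyrp1 were called in edgeR, but so were 731 genes (2.43%). Pmel gave 3.87 (SE 1.66, adjusted p = 0.487), Trpm1 3.54 (SE 1.19, adjusted p = 0.334), Tyr 3.17 (SE 1.35, adjusted p = 0.443), Tyrp1 3.06 (SE 1.09, adjusted p = 0.304), Dct 2.36 (SE 1.51, adjusted p = 0.67) and Mitf 1.57 (SE 0.567, adjusted p = 0.301) in edgeR. The 2 libraries at 10 µm were above all 3 at 50 µm for each of these 6 genes. At E11, 10 µm against 25 µm, none of the 6 was called by edgeR (378 of 18233 genes, 2.07%, were). DESeq2 called Trpm1 higher at 10 µm and 3.27% of all genes, and 1 gene had an unadjusted p under 0.05 in edgeR, against 11.5% of all genes. Trpm1 gave 5.98 (SE 1.97, adjusted p = 0.276), and without E11 10 µm replicate 2 it was called at 6.95. Pmel gave 4.49 (SE 2.44, adjusted p = 0.57) in edgeR. Dct was at least 10.7-fold higher at 10 µm, with the 25 µm libraries at the floor of 3 counts, but 12 of its 13 counts came from replicate 1, and without it 1 count gives no bound. Sections of different widths are also different sections, so width and the part of the embryo cannot be told apart.

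To see what else the pigment-positive pixels hold, counts of all other genes were summed over positive and over the remaining tissue pixels in each of the 3 sections with at least 20 positive pixels. They were compared with edgeR with the section as a block. Of 11160 genes tested, 102 (0.914%) were called, 68 (0.609%) higher and 34 (0.305%) lower in positive pixels, and 5.99% had an unadjusted p under 0.05. DESeq2 called 48 (0.476%), of which 44 were higher. Leaving out E10 10 µm replicate 1 gave 23 calls, leaving out replicate 2 gave 33, and leaving out the E11 section gave 209. With 3 sections the test rests on 2 residual degrees of freedom, and edgeR shares the estimate of spread across genes. Its small p-values therefore rest on that shared spread as well as on the 3 sections. Positive pixels held 515708, 503454 and 55532 counts in all, so the E11 section was measured least deeply.

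**Figure D5:**
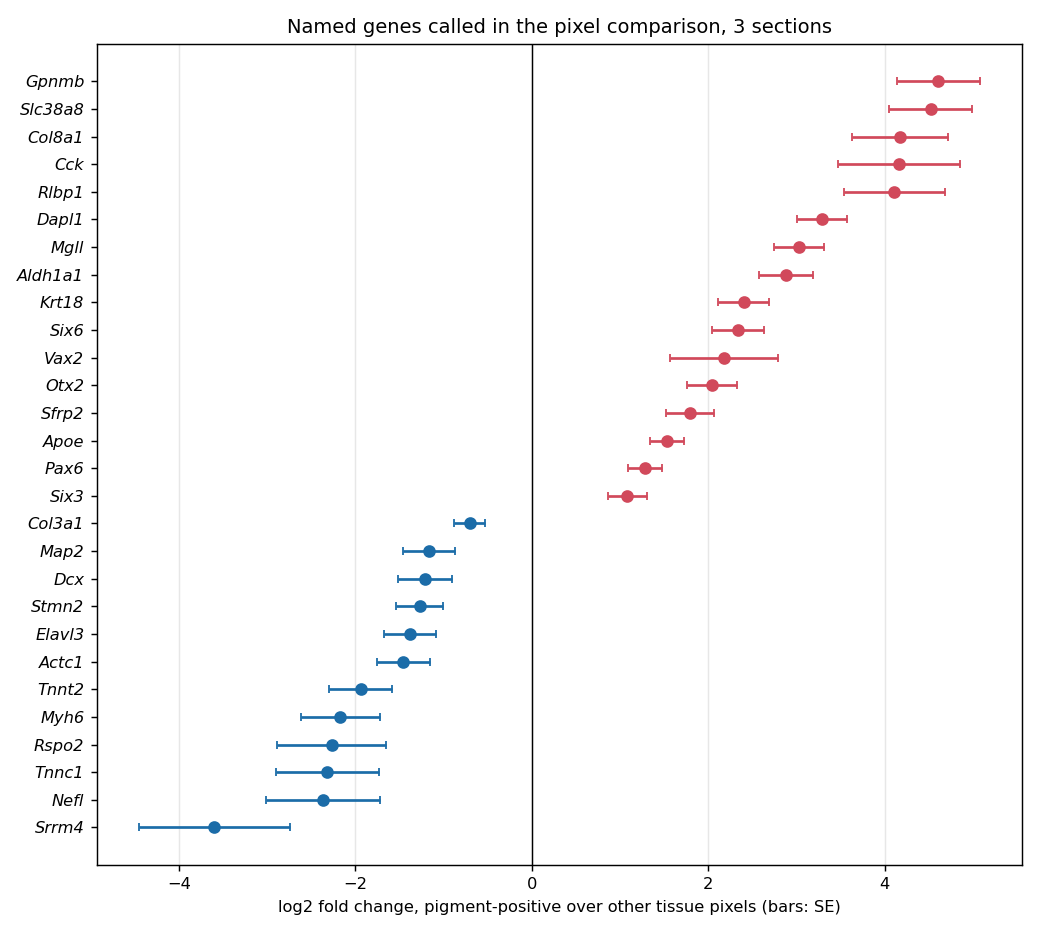
Log2 fold change of the named genes that were called, pigment-positive over other tissue pixels of 3 sections, with standard errors. Gpnmb and Slc38a8 lie farthest to the right, and genes of neurons and heart muscle lie to the left.

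The genes with the largest folds, and those most alike across pixels, include known genes of pigment cells. Gpnmb was at 107 CPM in positive and 3.4 in other pixels of E10 10 µm replicate 1, 67.5 and 4.17 in replicate 2, and 36.0 and 0.795 (2 counts each) in the E11 section. Its log2 fold change was 4.61 (SE 0.475, adjusted p = 1.07e-18 in edgeR). Slc38a8, an amino acid transporter, was at 98.9 and 2.61, 83.4 and 5.84, and 18.0 (1 count) and 1.19 CPM, a log2 fold change of 4.52 (SE 0.471, adjusted p = 2.3e-18 in edgeR). Col8a1, a collagen, gave 4.17, Cck, a peptide hormone, 4.16, and Rlbp1, a retinoid-binding protein of the pigment epithelium and Müller glia, 4.11. These 5 were higher in positive pixels of all 3 sections and were called in every alternative that tested them. In the E11 section each of them rested on 1 or 2 counts in positive pixels.

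Slc38a8, Gpnmb, Aldh1a3, Otx2, Col8a1, Krt18, Dapl1, Aldh1a1, Apoe and Mgll were the 10 genes whose log2(count per 10000 + 1) correlated most with that of the 8 genes summed. The measure was the mean Pearson's r over the 2 E10 10 µm libraries, among 10397 genes seen in at least 1% of pixels of both. Slc38a8 gave a mean r of 0.302, Gpnmb 0.262, Aldh1a3 0.211 and Otx2 0.205. These 10 genes were chosen by likeness to the summed genes that also set the positive pixels of both E10 sections. Higher values in the pixel test thus follow in part from that choice, and its p-values add no separate support. In the pixel test Dapl1 gave a log2 fold change of 3.29 (SE 0.279, adjusted p = 7.99e-28 in edgeR), Mgll, a lipase, 3.03 (SE 0.282, adjusted p = 2.87e-23) and Apoe, a lipid carrier, 1.53 (SE 0.194, adjusted p = 5.27e-12). Aldh1a3, an enzyme of retinoic acid synthesis, was at 67.9 and 6.27 CPM in replicate 1 and 61.6 and 4.38 in replicate 2, but 162 and 151 CPM in the E11 section, and was not called (log2 fold change 2.44, adjusted p = 0.146 in edgeR). Aldh1a1, another, was called at 2.88 (adjusted p = 1.27e-17 in edgeR), with no count in the E11 positive pixels, and lost its call without E10 10 µm replicate 1.

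Among the lists, 2 of the 5 tested genes of the pigment epithelium list were called higher, Rlbp1 and Otx2, with a list median of 1.44 against -0.05 for all genes. Otx2, a transcription factor of the pigment epithelium and forebrain, was at 260 and 25.5, 135 and 69.0, and 126 and 56.1 CPM in the 3 sections. Its log2 fold change was 2.04 (SE 0.281, adjusted p = 1.3e-07 in edgeR), and it was not called without E10 10 µm replicate 1 (0.98) or without the E11 section (2.24). Rpe65, an enzyme of the mature pigment epithelium in the same list, had no count in the positive pixels of any section. Of the 31 other pigment genes 15 were tested and Gpnmb alone was called, with a median of 0.17. Oca2 and Gpr143, a melanosome receptor, did not pass the filter. Oca2 had 42 counts (81.4 CPM) in positive against 16 (1.39 CPM) in other pixels of E10 10 µm replicate 1 and 8 (15.9 CPM) against 15 (3.13 CPM) in replicate 2. Gpr143 had 12 (23.3 CPM) against 10 (0.871 CPM) and 15 (29.8 CPM) against 2 (0.417 CPM).

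Some genes of the neural retina list were higher too. Of the 9 tested, 4 were called, Six6, Sfrp2, Pax6 and Six3, and the list median was 1.08. DESeq2 called 3 of these 4, all but Sfrp2. Rax (1.26), Fgf15 (0.86) and Lhx2 (0.267) were positive but not called. Sox2 (-0.365) and Hes5 (-1.15, adjusted p = 0.0688 in edgeR) were lower in positive pixels of all 3 sections and not called. Six6 gave a log2 fold change of 2.34 (SE 0.294, adjusted p = 4.36e-12 in edgeR) and was called in all 9 alternatives. Pax6, a transcription factor of the whole optic cup, gave 1.28 (SE 0.195, adjusted p = 4.37e-08 in edgeR) and lost its call without E10 10 µm replicate 1 (0.68) or the E11 section (1.33). Sfrp2, a secreted modulator of Wnt signalling, gave 1.79, with no count in the E11 positive pixels, and was not called without either E10 section or by DESeq2. Vax2, of the ventral optic cup, was called at 2.18 (adjusted p = 0.0435 in edgeR) from 7, 7 and 2 counts and in 2 of 8 alternatives. What part pixels holding more than one tissue layer have in this was not tested. Krt18, a keratin of simple epithelia, was called at 2.4 (SE 0.285, adjusted p = 6.64e-11 in edgeR), with 54 CPM in positive and 75.1 in other pixels of the E11 section.

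Markers of the other source of pigment cells were measured too. None of the 6 tested genes of the neural crest and melanoblast list was called by edgeR (1 had an unadjusted p under 0.05, and 0 were called by DESeq2), with a median of -0.44. Sox10, a defining gene of neural crest, had 5 counts in positive pixels of each E10 section (9.7 and 9.93 CPM) against 10.0 and 1.46 CPM elsewhere, and none in the E11 section. Kit, the receptor of melanoblasts, was at 31.0 and 21.6 CPM in replicate 1 and 11.9 and 22.5 in replicate 2, with no count in positive pixels of the E11 section. The summed list was detected in every library, between 126 and 418 CPM.

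All 5 genes of the neuron list were called lower by edgeR, with a median of -1.21. DESeq2 called 1 of them, Stmn2. Stmn2, a tubulin regulator of neurons, was at 52.4 and 141, 79.5 and 158, and 0 and 85.1 CPM, a log2 fold change of -1.27 (SE 0.266, adjusted p = 0.000523 in edgeR). When the other pixels were limited to those within 10 pixels of a positive pixel in a group of at least 3, which was chosen after seeing the data, Stmn2 gave -0.74 and was not called, and it lost its call without either E10 section. Elavl3, an RNA-binding protein of neurons, gave -1.38 (SE 0.294, adjusted p = 0.000703 in edgeR), and Srrm4, a splicing regulator of neurons, -3.6 (SE 0.853, adjusted p = 0.00428 in edgeR). Both lost their calls without either E10 section and by DESeq2. Srrm4 had 0, 1 and 1 counts in positive pixels of the 3 sections. In the E11 section it was at 18.0 CPM in positive and 15.5 CPM in other pixels, the opposite direction. The 3 tested heart muscle genes were called lower by edgeR and 1 of them, Tnnt2, by DESeq2, but other pixels held 4370 counts of Tnnt2 in E10 10 µm replicate 1 against 3 and 38 in the other sections. Without that section Actc1 gave 0.18, the opposite sign. Col3a1, a collagen of the mesenchyme list, gave -0.7 (SE 0.177, adjusted p = 0.0105 in edgeR) and was the only one called of its 6 genes. DESeq2 called none of the 6.

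Antibody tags were counted on the section of E10 10 µm replicate 2, and none of the 22 antibodies targets one of the 8 genes. As shares of all tags, positive over other pixels, ratios ran from 0.831 (erythroid cells, LY76) to 1.22 (pan-endothelial cell antigen). CD63, a membrane protein of late endosomes and melanosomes, was at 4.3% of tags in positive and 3.65% in other pixels, a ratio of 1.18 (counting interval 1.14 to 1.21). With 1 section there is no replicate error for these ratios.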

How the data were processed

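Transcripts were counted in 11 libraries of mouse embryo sections, and antibody tags in 4 further libraries of E10 sections, of which the one at 10 µm was used. The authors deposited raw counts per gene or antibody and pixel, with no normalization. Per the labels' protocols, sections were frozen and sequencing libraries came from Nextera XT. The submitters' processing notes name CASAVA 1.8.2 and GRCh38, a human build, for these mouse samples; the aligner, annotation, use of strand and treatment of duplicates are not given in the sources used here. Coordinates are therefore those of the reference, not of the counting.

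Each library's tissue pixels were added up before any test, so the library is the replicate. Stages and widths were compared with edgeR 4.0.16 (limma 3.58.1, R 4.3.3): quasi-likelihood, robust, TMM factors, the default filter, 6 group means over 11 libraries. P-values are two-sided and adjusted by Benjamini-Hochberg over all genes tested, with 0.05 as the threshold. Positive and other pixels were compared with the library as a block and the 8 genes left out. DESeq2 1.42.0 was an alternative. In simulated counts with 200 genes changed 4-fold, 89.5% were recovered for E11 against E10 (16961 genes), and 68.5% for the pixel comparison (11242 genes). The changed genes had at least 200 counts in all, and the simulated libraries otherwise shared a common mean and spread. The pigment genes varied more within groups and several hold fewer counts, so these shares do not apply to them. Pixel analyses used Python 3.11.15, numpy 2.4.6 and scipy 1.17.1.

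The 8 genes and all lists were chosen with earlier results of these data known. Lists were other pigment genes, pigment epithelium, neural retina, optic stalk, lens, neural crest and melanoblast, periocular mesenchyme, osteoclast or macrophage, red cell, neuron, heart muscle and surface epithelium. Besides the 8, the named genes are up to 4 called genes per list, the 10 most alike across pixels, and up to 5 called genes with the largest folds in each direction, symbols of gene models left out; levels of a few other listed genes were chosen after their values were seen. Some genes of the lists are not reported here and were left out of every list value. Replicate numbers of E11 did not pair the libraries (r = 0.0548 over 18233 genes). Alternatives were other size factors, DESeq2, no filter, all pixels, other positive rules and leaving out each library.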

Additional observations from a re-analysis of the deposited data

How the results depend on the processing

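Counts of called genes depended on the test, the filter and single libraries. For E11 against E10 the count of 656 became 1428 with DESeq2 and 1988 with no filter on low counts, and 144 to 1465 with 1 library left out. For E12 against E10 at 50 µm the count of 390 (351 higher and 39 lower) became 520 with DESeq2 (337 and 183), 1328 with no filter (941 and 387), and 98 to 969 with 1 library left out. For E10 at 10 against 50 µm the count of 20 (1 higher and 19 lower) became 413 with DESeq2 (239 and 174) and 731 with no filter, and 0 to 164 with 1 library left out. For E11 at 10 against 25 µm the count of 378 became 870 with no filter, 297 with the replicate number as a block, and 33 to 463 with 1 library left out. For the pixel comparison the count of 102 became 48 with DESeq2, and 23 without E10 10 µm replicate 1, 33 without replicate 2 and 209 without the E11 section. The stricter rule for positive pixels gave 77, and other pixels within 10 pixels of a positive pixel in a group of at least 3, added after seeing the data, gave 83. Of the 316 alternative values for the pigment genes in the stage and width comparisons, 9 gained a call and 6 changed sign. With 1 library left out, E12 against E10 ranged from -2.84 to 0.66 for Pmel, from -0.84 to 3.01 for Dct and from -2.84 to 3.14 for Tyr, each highest without E10 50 µm replicate 2. Mitf ranged from -0.27 to 0.75, with -0.27 and -0.09 without replicates 1 and 3. Tyrp1 between E11 widths ranged from -2.57, without E11 10 µm replicate 1, to 4.44, and Actc1 between pixels from -1.57 to 0.18, without E10 10 µm replicate 1. The cause was not tested. The median pair correlation at E10 10 µm, 0.139, was 0.0453 after thinning to 1000 counts. The share of thin runs in replicate 2, 78.4%, was 89.8% under the stricter rule and 98.8% without Pmel. All 88 levels kept within their counting intervals when all pixels were used. The 21 ratios inside and outside pixels chosen by the other genes stayed within their counting intervals under the stricter rule. Mlana and Slc45a2 had too few counts for a comparison between groups, and with 1 to 3 libraries per group a difference must be large against the spread to be called.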

Other observations

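In E10 50 µm replicate 2 the pigment genes were spread over many pixels. Of its 829 tissue pixels 185 (22.3%) held at least 1 count of the 8 genes, and only 9 were pigment-positive. The 134 Pmel counts lay in 79 pixels, with at most 6 in one. In E10 25 µm the 91 counts of the 8 genes lay in 66 of 1766 pixels, of which 11 were positive.

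The genes that overlap Pmel on the opposite strand did not vary as it did. Across the 11 libraries Cdk2, a cell cycle kinase, was between 18.2 and 42.9 CPM, and Dgka, a lipid kinase, between 4.34 and 15.5 CPM. Within E10 10 µm replicate 1 Cdk2 was at 19.4 CPM in positive and 30.7 CPM in other pixels, and in replicate 2 at 31.8 and 32.3 CPM.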
